A study of Homo sapiens with 9 samples.

Results

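The genes described here encode the proteins of the cytosolic ribosome. They were taken as every protein-coding gene whose symbol is RPL or RPS followed by a number, with A, L, X or Y endings and paralogue numbers allowed, together with RPLP0, RPLP1, RPLP2 and RPSA, provided a probe set named that gene alone. The rule found 61 genes on 122 probe sets, of 19775 genes and 54613 non-control probe sets on the array. Each gene was represented by its brightest probe set, and 59 of the 61 passed the filter on low values that a gene had to pass to be tested. RPL3L, the striated-muscle paralogue of RPL3, and 1 Y-linked member fell under that filter, and no values are given for the Y-linked gene. RefSeq lists 87 genes that fit the symbol rule, and 26 of them are not members. Of these 26, 15 sit on probe sets that name several genes, 13 of them together with a small nucleolar RNA hosted in an intron, as for RPL5, RPL4, RPL10, RPS2 and RPS20.

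All 9 arrays measured RNA of HEK293, a human embryonic kidney line, after transient transfection with a form of surfactant protein C, the small hydrophobic protein that alveolar type II cells of the lung make as a proprotein. The 3 arrays called Ex4 came from cells given a form that lacks exon 4, the 3 called LQ from cells given the L188Q substitution, and the 3 called WT from cells given the wild-type protein. WT is the control, so every group carries an expression construct, and no untransfected or empty-vector cells were analysed here. Separate cultures are not stated for the replicates, so the p-values speak of the spread among these arrays alone, possibly a technical one, and the small number of arrays limits the precision.

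Ribosomal proteins are built into the large (60S) and small (40S) subunits in the nucleolus and cytoplasm, in fixed proportion to the ribosomal RNAs. Most of their mRNAs are TOP mRNAs, meaning that they begin with a 5′ terminal oligopyrimidine run that lets mTORC1 and LARP1 switch their translation on and off together. They are among the most abundant mRNAs of dividing cells.

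The start of the transcript is shown for the 3 genes that passed the test in LQ and for 3 pairs of a ribosomal protein gene and its paralogue. Each line gives the 30 bases from 10 before to 20 from the RefSeq start (GRCh38.p14), with the unbroken C and T run at the start in capitals. The coordinates are chr1:153990752-153990781 on the plus strand for RPS27, chr15:63157458-63157487 on the minus strand for RPS27L, chr11:8682782-8682811 on the plus strand for RPL27A and chr22:39319604-39319633 on the minus strand for RPL3. They are chrX:101391001-101391030 on the plus strand for RPL36A, chr14:49620607-49620636 on the minus strand for RPL36AL, chr1:6199576-6199605 on the minus strand for RPL22 and chr3:170870176-170870205 on the minus strand for RPL22L1.
RPS27: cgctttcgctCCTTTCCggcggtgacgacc
RPS27L: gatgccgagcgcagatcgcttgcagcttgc
RPL27A: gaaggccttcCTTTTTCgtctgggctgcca
RPL3: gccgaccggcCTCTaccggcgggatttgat
RPL36A: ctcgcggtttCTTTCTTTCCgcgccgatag
RPL36AL: tcttccctttCCTgttaggcgagagctgcg
RPL22: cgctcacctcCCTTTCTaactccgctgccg
RPL22L1: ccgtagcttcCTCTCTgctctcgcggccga
If the run may start at a C within 10 bases of the annotated start, it has 12 bases in RPL36AL, 5 in RPL3 and 3 in RPS27L. Counted from the annotated start, the runs of RPL36AL and RPL3 are shorter than 5 bases and RPS27L has none. The other 5 begin there with a C followed by at least 4 pyrimidines.

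Over all members with a RefSeq promoter entry (53 of 61), 36 began with such a run, which is 67.9% of them, against 5.14% of 27305 genes in the table. A gene with several annotated starts was counted by its longest run. Allowing the run to start within 10 bases on either side of the annotated start, the shares were 84.9% and 38.4%. The letters CCGGAAG, searched on both strands from 250 bases before to 50 after the start, were in 35.8% of the members' windows and 12.2% of all. AAGATGG was in 11.3% against 7.11%, TATAAA in 9.43% against 14% and CACGTG in 7.55% against 8.77%. These matches describe the letters in the window and show no binding site. Among tested members the 35 with such a run at the start had a median log2 change of -0.31 in LQ and -0.17 in Ex4 relative to WT. The 17 with an entry but a shorter run or none there had -0.28 in LQ and -0.08 in Ex4. These medians are on the deposited scale, and the sign for the members as a whole turned with the scaling.

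The Ex4 label was checked first on the transfected gene. The SFTPC probe set that was lowest in Ex4 read 914, 39.1 and 28.7 on the Ex4 arrays and 126185, 108292 and 112695 on the LQ arrays, against 158962, 239964 and 178182 on the WT arrays. It was picked for its low Ex4 values. The brightest SFTPC probe set read 134379, 97630 and 169241 in Ex4. It read 132058, 108963 and 124170 in LQ, against 173160, 261955 and 190960 in WT. Neither probe set was used to tell LQ from WT. All 6 of the HEK293 markers listed (VIM, KRT8, KRT18, PAX2, NEFM and LIN28B) were above the array median on every array, and their summed signal was 135366 to 137664 in Ex4, 139201 to 148945 in LQ and 140569 to 177151 in WT. PAX2, a dim one among them, was nonetheless lower in LQ, at 530.1, 536 and 408, against 2026, 1533 and 2801 in WT, with a log2 change of -2.04 (limma adjusted p = 0.0254), and in Ex4 it read 1149.5, 385 and 415, with a change of -1.82 that did not pass (adjusted p = 0.0769). Of the markers of blood, fibroblasts and alveolar type II cells, 1 of 4 (CD79A), 1 of 3 (COL1A1) and 1 of 4 (SFTPB) were above it on every array. The blood markers summed to 1229.5 to 1453.5 in Ex4 and 1152 to 1267 in LQ, against 2214 to 2851 in WT, the fibroblast markers to 4056 to 5767 in Ex4 and 2782 to 3887 in LQ, against 5655 to 7318 in WT, and the type II cell markers to 1203 to 1962 in Ex4 and 1366 to 2278 in LQ, against 2133 to 3142 in WT. Among these markers COL1A1 was called lower in LQ, at -0.96 (limma adjusted p = 0.0284). The part of such signals in the results was not tested.

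The arrays differed in ways that bear on bright probe sets such as these. Trimmed mean intensities lay between 1493.3 and 1494.9, while array medians were 316.1 to 434.3 in Ex4 and 303.9 to 371.8 in LQ, against 506.4 to 524.4 in WT. The hybridization controls, bacterial bioB, bioC and bioD and phage cre transcripts that are added to the labelled sample and not made by the cells, were lower on the mutant arrays too. On all 18 of their probe sets the 3 LQ arrays lay below the 3 WT arrays, with a median log2 difference of -0.85, and in Ex4 the difference was negative on all 18, with a median of -0.45 and 5 without overlap. On a probe set for the 3′ end of bioD the intensities were 34276, 24947 and 46804 in Ex4 and 27136, 24496 and 24853 in LQ, against 40828, 55198 and 48596 in WT. The ratio of 3′ to 5′ GAPDH signal, used to judge RNA integrity, was 1.12 ± 0.14 in Ex4, 1.07 ± 0.016 in LQ and 1.31 ± 0.11 in WT (SD, n = 3 each). The same ratio for ACTB ran the other way, at 1.35 ± 0.18 in Ex4, 1.18 ± 0.041 in LQ and 1.13 ± 0.12 in WT. The part of these differences in the results below was not tested.

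Ribosomal protein transcripts gave very bright probe sets. Of the 60 members with printed values, 57 were above the array median on all 9 arrays. RPS16, RPS10, whose product is a ubiquitin target at collided ribosomes, and RPL37A had the highest signals. RPL3L, RPL10L, a testis-expressed paralogue of RPL10, and RPLP2, a protein of the stalk that recruits elongation factors, had the lowest, RPLP2 standing above the median on 5 arrays and RPL10L on 2. A probe set's brightness depends on its probes, so this orders signals and not transcript levels.

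The median intensity over the tested members was 88199, 82338 and 102298 on the Ex4 arrays and 85449, 77619 and 83515 on the LQ arrays, against 86267, 114954 and 101544 on the WT arrays. WT replicate 1 therefore sat with the mutant arrays, and WT replicate 2 was the highest of all. On the log2 scale the member median was 16.47 ± 0.16 in Ex4, 16.33 ± 0.072 in LQ and 16.61 ± 0.21 in WT (SD, n = 3 each). Taken relative to each array's median over the tested probe sets alone, it was 6.33 ± 0.19 in Ex4, 6.22 ± 0.082 in LQ and 6.26 ± 0.23 in WT. On that measure the groups differed by less than the largest of these SDs.

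Among the WT arrays, WT replicate 1 was the lowest WT array for 49 of the 59 tested members and WT replicate 2 was the highest for 46. The LQ arrays were tight, with a median within-group SD of 0.082 on the log2 scale, against 0.24 in WT, and the SD was smaller in LQ than in WT for 55 of 59 members. In Ex4 the median SD was 0.25.

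**Figure D1:**
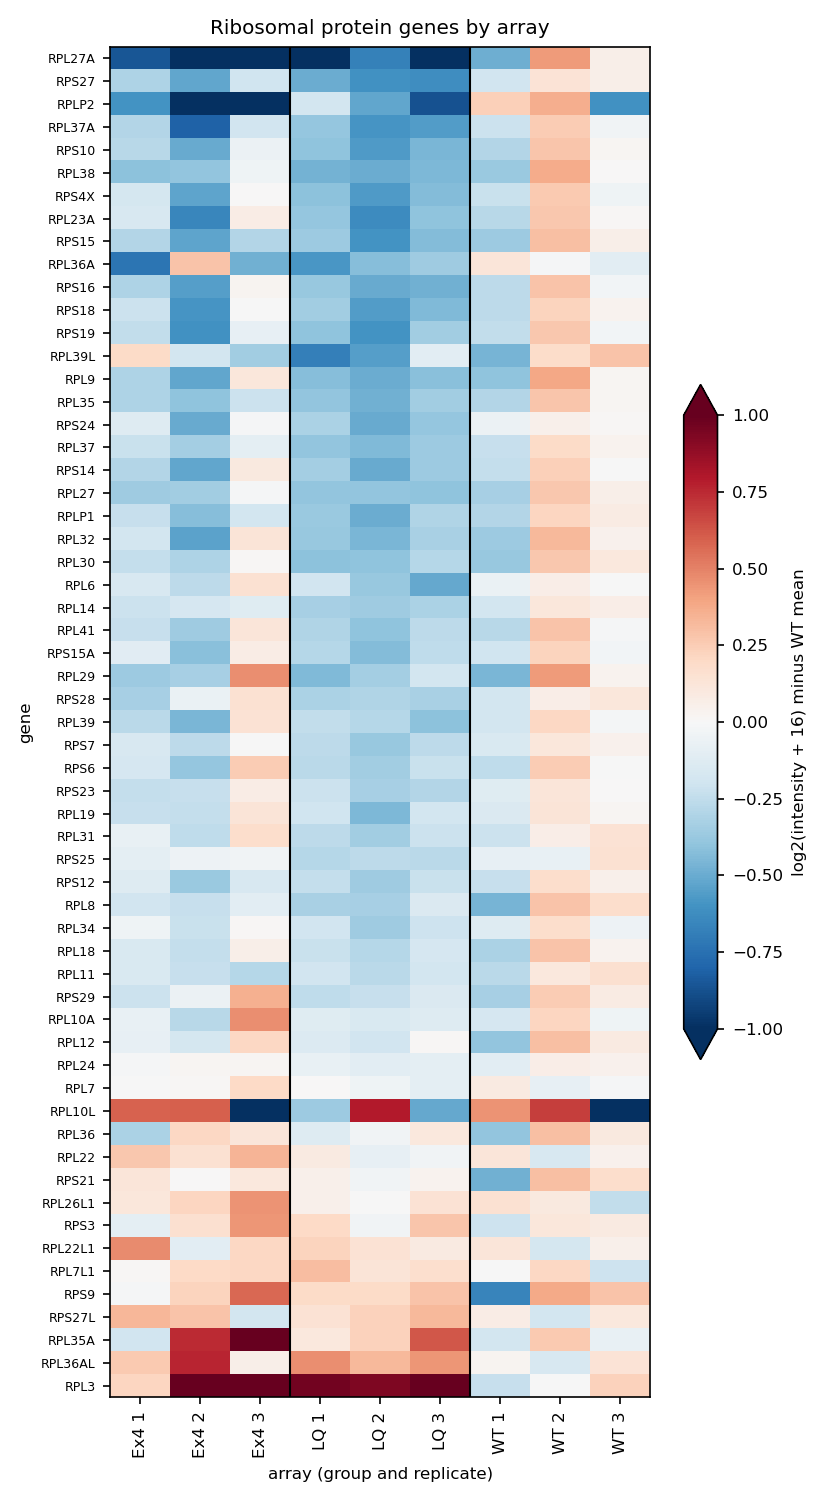
Signal of the 59 tested ribosomal protein genes on each of the 9 arrays (columns, by group and replicate), drawn as log2(intensity + 16) minus the WT mean of that gene. Colours saturate at a difference of 1 either way. Most rows are blue on the 3 LQ arrays and red on WT replicate 2 with the values as deposited, and the LQ median of -0.31 turned to 0.27 when arrays were centred on the median of all probe sets.

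With the values as deposited, most ribosomal protein genes were somewhat lower in LQ than in WT, by a median of -0.31 on the log2 scale, but the shift turned to 0.03 after quantile normalization and to 0.27 when every array was centred on the median of all its probe sets. Of the 59 tested members 3 passed the test, which is 5.08%, against 7.32% of all 14018 genes (3.69% higher and 3.63% lower) and 6.81% of probe sets, using limma with a Benjamini-Hochberg adjusted p under 0.05. RPL3 rose, and RPL27A and RPS27 fell. At an unadjusted p under 0.05, 2 of the 59 members were higher and 20 lower, against 1878 and 2410 of all 14018 genes. The fitted change was negative for 49 of 59 members. The count moved with single arrays, and so did the calls over all probe sets. Without WT replicate 1, 18 members were called lower, against 6.98% of all tested probe sets. Without WT replicate 2, WT replicate 3 or any 1 LQ array none was, where at most 0.0275% of all tested probe sets were.

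The median change over all tested probe sets was itself -0.15, so the members stood -0.17 from it. Under quantile normalization the median over all was 0.04, under centring on the tested probe sets 0.10 and under centring on all probe sets 0.44, while the members had 0.03, -0.07 and 0.27. Centring shifts every probe set of an array alike, so the gap of -0.17 could not change under either centring. Under quantile normalization, which could change it, the gap was -0.0092. With no filter on low values the median over all was -0.37, below the members' -0.31. Among the probe sets with a mean signal above percentile 80, the median over all was 0.12 and that of the members -0.29.

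For 30 of the 59 members all 3 LQ arrays lay below all 3 WT arrays, 50.8% of them against 23.2% of genes, and for 3 they all lay above, 5.08% against 15.7% of genes. These 3 were RPL3, RPL36AL and RPS27L. The count of 30 moved to 6 under quantile normalization, to 2 under centring on the tested probe sets and to 0 under centring on all of them, where 23 members lay wholly above, 39% of them against 47% of genes. The background for lying below moved to 16.4%, 12.4% and 5.29% of genes in turn.

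RPL3, a protein of the large subunit that reaches towards the peptidyl transferase centre, read 70428, 69243 and 79327 in LQ, against 30764, 36143 and 42491 in WT. Every LQ array was higher than every WT array. The log2 change was 1.01 ± 0.22 (SE, n = 3 arrays a group), which passed limma's test with an adjusted p of 0.0298. RPL3 was called in the 4 fits that left out any Ex4 array or WT replicate 1 but in none of the other 5. In those 5 at most 0.153% of all tested probe sets were called higher. Over all 9 fits the change of RPL3 lay between 0.89 and 1.13. Without the variance trend it did not pass (adjusted p = 0.071). In Ex4 the gene read 42057, 74767 and 77249, where replicate 1 fell within the WT range, and the log2 change of 0.79 ± 0.22 did not pass (adjusted p = 0.0869). The probe set is of the _x_at kind, whose probes can match other transcripts, and it was the sole tested one for this gene.

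RPL27A, another large-subunit protein, read 1329, 1962 and 1212 in LQ, against 2242, 4237 and 3268 in WT. Its signal was well under that of most members, and all mutant arrays of both kinds lay below all WT arrays. The log2 change in LQ was -1.09 ± 0.29 (limma adjusted p = 0.0462), and in Ex4, which read 1730, 1025 and 1313, it was -1.24 ± 0.29 (adjusted p = 0.0775). The LQ call held in 3 of 9 fits that left out an array, over which the change lay between -1.33 and -0.88. Without any 1 LQ array or WT replicate 2 or 3, at most 0.0275% of all tested probe sets were called lower. The call was also lost with the replicate number as a block (adjusted p = 0.055), and under quantile normalization and both median centrings (adjusted p = 0.0612, 0.0705 and 0.207).

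RPS27, a zinc-finger protein of the small subunit, read 89639, 83172 and 82285 in LQ, against 110406, 139179 and 131352 in WT. All 3 LQ arrays lay below the lowest WT array. The log2 change was -0.57 ± 0.14 (limma adjusted p = 0.0403), a level 0.672 times that of WT. The call held in 4 of the 9 fits without 1 array, over which the change lay between -0.67 and -0.50. Without any 1 LQ array or WT replicate 2 or 3, at most 0.0275% of all tested probe sets were called lower. The change was -0.23 under quantile normalization, -0.33 under centring on the tested probe sets and 0.0098 under centring on all. In Ex4 the arrays read 101901, 88370 and 110210.1, also all below WT, with a change of -0.34 ± 0.14 that did not pass (adjusted p = 0.171).

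**Figure D2:**
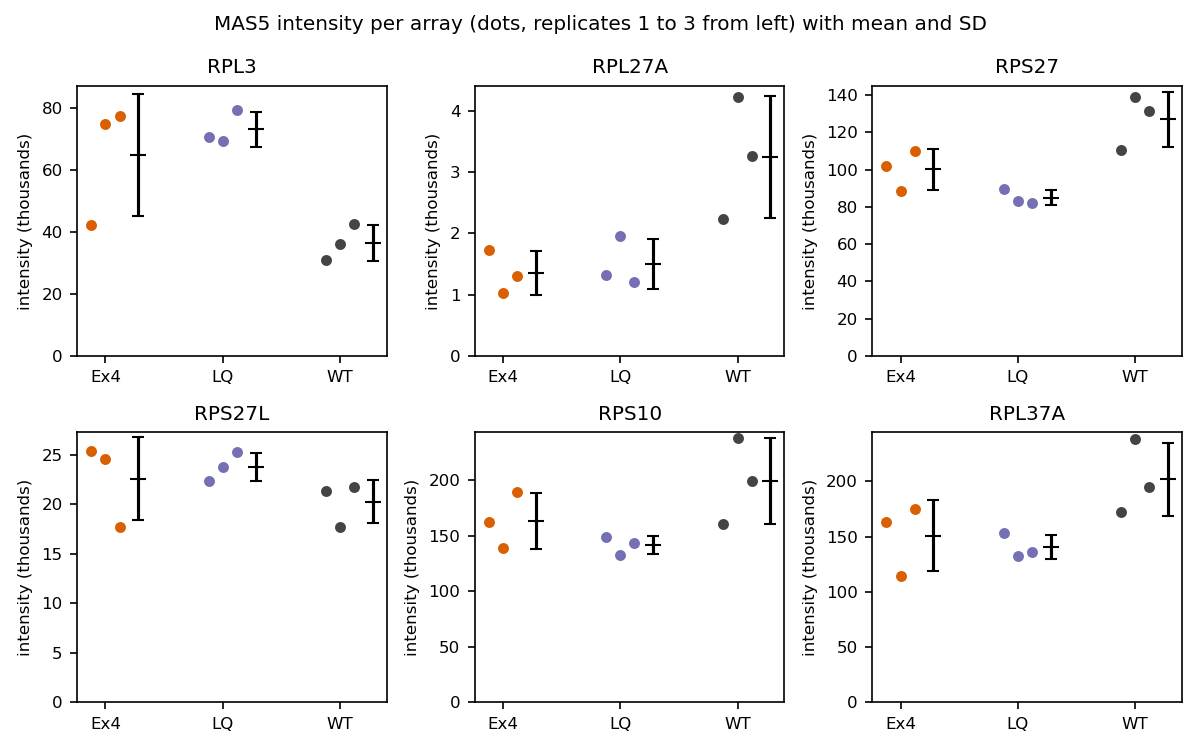
MAS5 intensity (vertical axis from 0, arbitrary units divided as the axis label states) of 6 ribosomal protein genes on each array, with dots for replicates 1 to 3 from left and bars for the mean and SD of each group. RPL3 is higher on all LQ arrays than on any WT array, and RPL27A, RPS27, RPS10 and RPL37A are lower on all LQ arrays as deposited, of which RPS27 turned to a log2 change of 0.0098, RPS10 to 0.11 and RPL37A to 0.07 when arrays were centred on the median of all probe sets.

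Other large-subunit members had negative changes in LQ that did not pass the test. RPL37A, a zinc-binding protein, read 153197, 132757 and 136118 in LQ, against 172308, 238090 and 194877 in WT, and its change was -0.51 (adjusted p = 0.096). RPL38, whose mutation alters translation of Hox mRNAs in mice, had a change of -0.47 (adjusted p = 0.117). RPL23A, at the tunnel exit, had -0.47 (adjusted p = 0.141), and RPLP2 had -0.53 with a larger error of 0.38 (adjusted p = 0.383). For RPL37A, RPL38 and RPL23A all LQ arrays lay below all WT arrays, while RPLP2 overlapped.

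In the small subunit RPS10 read 148525, 132739 and 142997 in LQ, against 160373, 237448 and 198968 in WT. No LQ array reached the lowest WT array, and the change of -0.48 did not pass (adjusted p = 0.0964). RPS4X, the X-linked form of a protein with a Y-linked copy, had -0.47 (adjusted p = 0.0994), again without overlap. On the positive side, none passed besides RPL3. RPL36AL had 0.41 (adjusted p = 0.157), RPL35A, a gene mutated in Diamond-Blackfan anaemia, 0.32, and RPS27L, RPS9, RPL7L1, RPL22L1 and RPS3 lay between 0.15 and 0.23.

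In Ex4 no ribosomal protein gene passed the test against WT, and the median log2 change was -0.14 as deposited, but 0.05 after quantile normalization and 0.35 with centring on all probe sets. The count was 0 of 59, and limma called 0 of 14018 genes (0%) and 4 of 32768 probe sets (0.0122%). At an unadjusted p under 0.05, 1 of the 59 members was higher and 4 lower, against 1701 and 2111 of all 14018 genes. The median over all tested probe sets was -0.12, so the members stood -0.02 from it. The change was negative for 43 of 59 members, with a range of -1.24 to 0.79.

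All 3 Ex4 arrays lay below all WT arrays for 2 members, RPL27A and RPS27, against 14.9% of genes, and above them for RPL22 alone, against 9.07% of genes. RPL22, a large-subunit protein that also binds RNA outside the ribosome, read 75838, 69985 and 79633 in Ex4, against 68539, 56479 and 64816 in WT, and its change was 0.25 (adjusted p = 0.263). The largest negative changes after RPL27A were -0.92 for RPLP2 (adjusted p = 0.17), -0.43 for RPL37A, -0.37 for RPS15, -0.34 for RPS27, -0.31 for RPS19, the gene most often mutated in Diamond-Blackfan anaemia, -0.31 for RPL35 and -0.31 for RPL36A. The largest positive ones after RPL3 were 0.54 for RPL35A, 0.36 for RPL36AL, 0.26 for RPS9, 0.26 for RPL26L1, 0.25 for RPL22, 0.19 for RPL22L1 and 0.17 for RPS3.

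The RPL35A value rested on 2 arrays, and the gene's probe sets disagreed. An almost equally bright one had 0.10 in Ex4 and -0.02 in LQ. Over the gene's 5 tested probe sets the changes ranged over 1.02 in Ex4 and 1.21 in LQ, with both signs in each. The brightest probe set read 42289, 81059 and 100277 in Ex4, against 42358, 57690 and 45936 in WT. Ex4 replicate 1 was thus just under the lowest WT value. The same array stood apart from its group more widely, with a mean correlation of 0.906 with the other Ex4 arrays and 0.911 with WT over tested probe sets. Without it 2 members were called higher in Ex4, RPL3 at 1.07 (limma adjusted p = 0.00464) and RPL35A at 0.90 (adjusted p = 0.0179), and RPL27A was called lower at -1.43 (adjusted p = 0.0152), in a fit that called 4.3% of all tested probe sets higher and 9.15% lower. Without WT replicate 1, RPL27A, RPS15 and RPL35 were called lower in Ex4 and 0 members higher, where 4.32% of all tested probe sets were called lower and 6.88% higher.

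**Figure D3:**
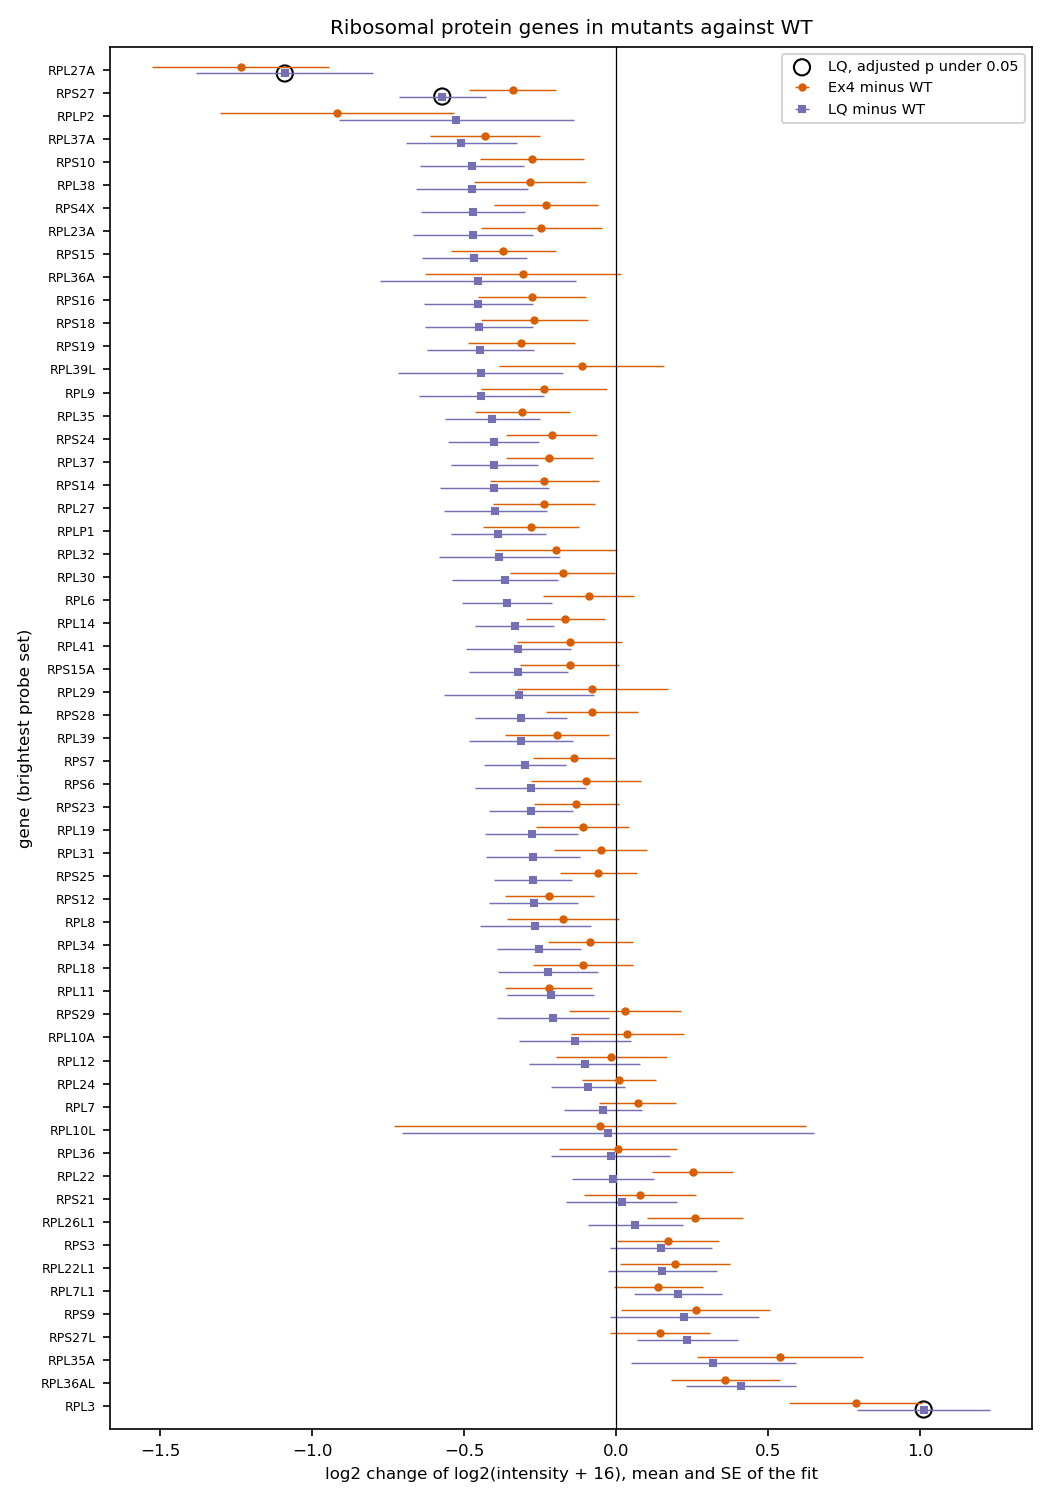
Fitted log2 change with its SE for each tested ribosomal protein gene (rows), with orange circles for Ex4 minus WT and purple squares for LQ minus WT, values as deposited. Black rings mark the 3 LQ changes with an adjusted p under 0.05. Most squares lie left of 0, with a median of -0.31 that turned to 0.27 when arrays were centred on the median of all probe sets.

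Between the mutants no member passed the test, and the members' median log2 change in LQ relative to Ex4 was -0.16, against -0.02 over all tested probe sets, but -0.0029 after quantile normalization. limma called 0 of 14018 genes (0%) and 2 of 32768 probe sets (0.0061%). No member had an unadjusted p under 0.05, at which 307 of the 14018 genes were higher and 281 lower. The changes were negative for 51 of 59 members. The largest negative ones were -0.33 for RPL39L, -0.27 for RPL6, -0.26 for RPL22 and -0.24 for RPL29, and the largest positive 0.39 for RPLP2, 0.22 for RPL3, 0.15 for RPL27A and 0.09 for RPS27L. All LQ arrays lay below all Ex4 arrays for 7 members, 11.9% of them against 6.47% of genes, and above them for 0, against 5.91% of genes. The 7 moved to 5 under quantile normalization, 8.47% against 6.23% of genes. Under centring on the tested probe sets it was 2, 3.39% against 4.19%, and under centring on all of them 0, against 2.01%.

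By subunit, the 30 large-subunit members outside the stalk and the paralogues had a median change of -0.32 in LQ and -0.16 in Ex4 relative to WT, and the 20 small-subunit members had -0.32 in LQ and -0.18 in Ex4, but centring on all probe sets turned these to 0.27 in LQ and 0.33 in Ex4 for the large subunit and to 0.26 in LQ and 0.31 in Ex4 for the small. The stalk protein RPLP1 read 104501, 95435 and 109744 in LQ, against 109783, 156252 and 142885 in WT, with a change of -0.39 (adjusted p = 0.129). RPL11, which binds the 5S ribosomal RNA and MDM2, had -0.22 in LQ and -0.22 in Ex4.

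At the tunnel exit, where the nascent chain leaves and the signal recognition particle and the Sec61 channel dock, 6 members were tested and none passed in either mutant. Their median was -0.30 in LQ and -0.15 in Ex4 as deposited, and turned to 0.08 in LQ and 0.07 in Ex4 after quantile normalization. RPL35, a contact of the signal recognition particle, had -0.41 in LQ, RPL19 and RPL31 had -0.28 and -0.27, RPL39, which lines the tunnel, had -0.31, and for these 4 and RPL23A, 5 of the 6, all LQ arrays lay below WT as deposited, where 23.2% of all genes did. RPL22 had -0.01 in LQ on its brightest probe set, with both signs among its 5 tested probe sets. Of the ubiquitin targets tested, RPS3, at the mRNA entry, had 0.15 in LQ and RPS10 -0.48. Among the 14 tested genes mutated in Diamond-Blackfan anaemia 1 was called lower in LQ, RPS27, where 3.63% of all genes were. The list's median of -0.32 turned to 0.02 after quantile normalization.

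Most paralogues had positive changes, and none passed the test on the deposited values. Their median stayed positive after quantile normalization, at 0.10 in LQ and 0.11 in Ex4. Both centrings raised every change against WT alike, so under them a positive median could not turn. Of 9 measured, 7 were tested, with a median of 0.15 in LQ and 0.14 in Ex4 and a positive change for 5 of 7 in each. With arrays centred on the median of all probe sets, 4 of the 7 were called higher in LQ (RPL7L1, RPL22L1, RPL36AL and RPS27L), against 24.2% of all tested probe sets. RPS27L, a p53 target nearly identical in protein to RPS27, read 22332, 23739 and 25233 in LQ, against 21297, 17736 and 21759 in WT, all LQ arrays above all WT arrays, with a change of 0.23 ± 0.17 (adjusted p = 0.366), beside -0.57 for RPS27. RPL36AL read 20648, 18708 and 20300 in LQ, against 15215, 13380 and 16418 in WT, also without overlap. Its partner RPL36A had a change of -0.46 on a dim probe set (adjusted p = 0.365).

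RPL22L1 had 0.15 in LQ and 0.19 in Ex4, and the brightest probe set of its partner RPL22 had -0.01 in LQ and 0.25 in Ex4. The probe sets of RPL22 disagreed in LQ. Others had 0.49 and 0.53, with all LQ arrays above all WT arrays, and -0.27 and -0.24, with all LQ arrays below. RPL7L1 had 0.20 and RPL26L1 0.06 in LQ, RPL39L -0.45 and RPL10L -0.03. No difference between a paralogue and its partner was tested, and the probe sets of the paralogues are dimmer than those of most members.

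**Figure D4:**
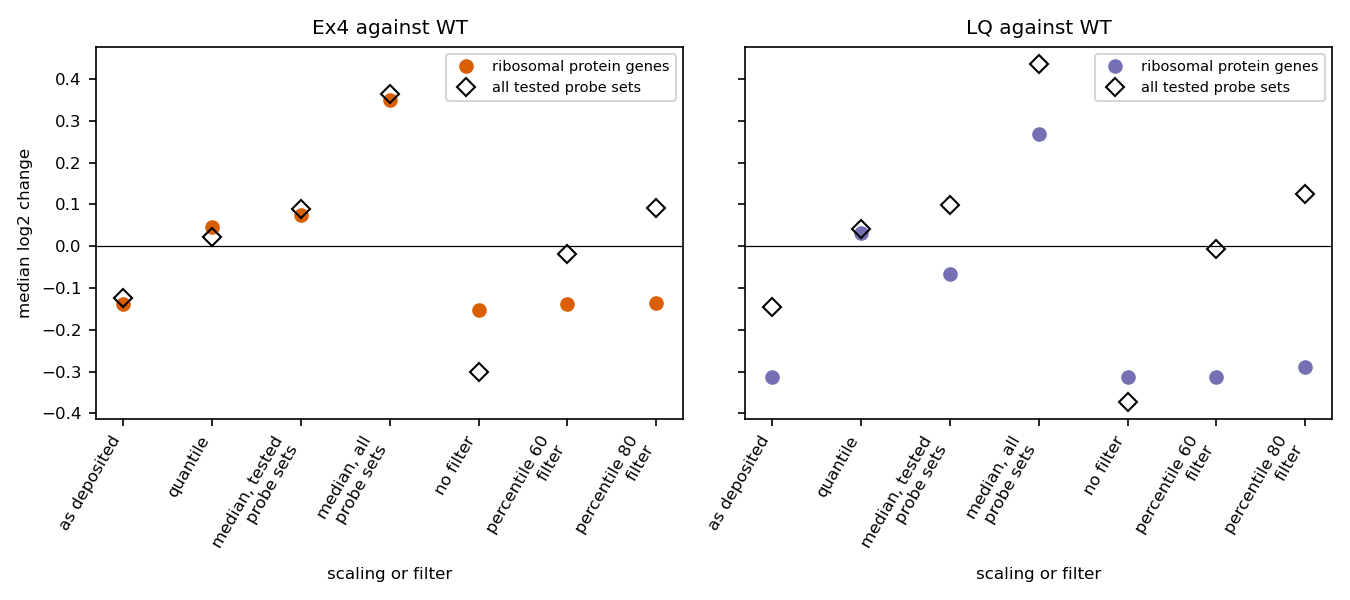
Median log2 change relative to WT of the 59 ribosomal protein genes (filled circles) and of all tested probe sets (open diamonds) under the scaling or filter on the horizontal axis, for Ex4 (left) and LQ (right). In LQ the circles turn from -0.31 as deposited to 0.03 with quantile normalization and 0.27 with centring on all probe sets.

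Genes with several probe sets often gave changes of both signs. Of the 112 tested member probe sets, 31 genes had more than 1, and in 12 of them the LQ changes differed in sign, as they did in 12 for Ex4. The median range between probe sets of a gene was 0.43 in LQ and 0.27 in Ex4. Among the 53 probe sets that did not represent their gene, 17 had a positive and 36 a negative LQ change, and 3 passed the test, where 3.09% of all tested probe sets were called higher and 3.72% lower. These were 1 of RPL37 at 0.72 (adjusted p = 0.0363) and 1 of RPS21 at 1.12 (adjusted p = 0.0296), which rose, and 1 of RPL38 at -1.22 (adjusted p = 0.0311), which fell. The brighter probe sets of RPL37 and RPS21 had -0.40 and 0.02.

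**Figure D5:**
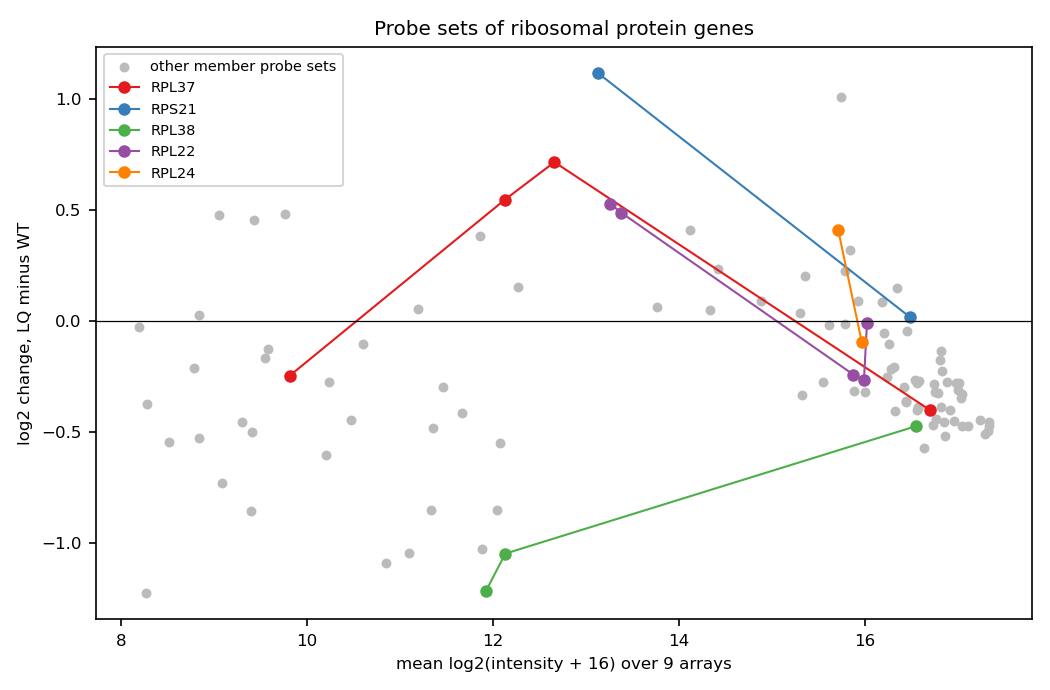
Log2 change in LQ relative to WT of each tested probe set of a ribosomal protein gene (vertical axis) against its mean log2(intensity + 16) over the 9 arrays (horizontal axis). Lines join the probe sets of RPL37, RPS21, RPL38, RPL22 and RPL24, and those of RPL37 run from -0.40 to 0.72.

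Genes that act on ribosomal proteins and ribosome assembly included several that passed the test in LQ. Those named as called kept their direction after quantile normalization. Both centrings raised every change against WT alike, so they could not turn a rise, and the change of UBTF stayed negative under both. Of 32 tested genes of ribosome biogenesis, 5 rose and 1 fell in LQ, with a median of 0.24, where 3.69% of all genes were called higher and 3.63% lower. RRP12, needed for maturation and export of ribosomal subunits, had 1.57 (limma adjusted p = 0.00356), NOB1, the endonuclease that cuts the 18S precursor, 0.98, and PES1, a large-subunit assembly factor, 0.77, while UBTF, a DNA-binding factor of RNA polymerase I, had -1.22 (adjusted p = 0.0191). The polymerase I factor RRN3 and the 60S export adaptor NMD3 rose too. After quantile normalization RRN3 and NMD3 no longer passed (adjusted p = 0.0708 and 0.1). The list's count moved to 3 higher and 3 lower in LQ after quantile normalization, where 2.04% of all tested probe sets were called higher and 1.48% lower. With centring on all probe sets it was 23 higher and 1 lower, against 24.2% higher and 1.58% lower of all tested probe sets. As deposited, in Ex4 none of the 32 passed, UBTF having -1.04 and RRP12 0.96 (adjusted p = 0.0763 for both).

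As deposited, with 3.69% of all genes called higher in LQ, 2 of 12 chaperones and importers of ribosomal proteins rose, AAMP, whose yeast counterpart binds a ribosomal protein as it is made, at 0.80 (adjusted p = 0.0284) and the importin TNPO1 at 0.72, and in Ex4 TNPO1 had 0.72 and GRWD1 -0.47 without passing. Of 17 regulators of these mRNAs LARP4, which binds poly(A), rose at 1.37 in LQ (adjusted p = 0.026), with 1.23 in Ex4 that did not pass, where the S6 kinase gene RPS6KB1 had 1.06. Of 11 genes of ribosome quality control ASCC3, a helicase that splits collided ribosomes, rose at 0.86 (adjusted p = 0.0327), and in Ex4 none passed, the largest changes being 1.10 for the ubiquitin ligase LTN1 and 0.89 for NEMF. Of 12 docking genes SRP19, of the signal recognition particle, rose at 0.61 (adjusted p = 0.0411), and in Ex4 SRP19 and SEC61B had 0.62 and 0.43 without passing. TNPO1, ASCC3 and SRP19 did not pass after quantile normalization (adjusted p = 0.08, 0.0587 and 0.115). The LQ medians of these 4 lists were 0.22, 0.15, 0.66 and 0.19 in the order given, and that of the regulators turned to -0.01 after quantile normalization. With centring on all probe sets, where 24.2% of all tested probe sets were called higher in LQ, the counts called higher were 8 of 12 chaperones and importers, 8 of 17 regulators, 10 of 11 quality-control genes and 7 of 12 docking genes. With centring on the tested probe sets, where 9.42% were called higher, 6 of the 11 quality-control genes were.

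Of 15 translation genes with known TOP mRNAs that are not ribosomal proteins, none passed in either mutant as deposited, and the median was -0.07 in LQ, turning to 0.02 after quantile normalization, and 0.00 in Ex4. With centring on all probe sets 6 of the 15 were called higher in LQ and 4 in Ex4, where 24.2% of all tested probe sets were called higher in LQ and 14.7% in Ex4, and with centring on the tested probe sets 1 was in LQ. As deposited, the largest changes in LQ were -0.46 for TPT1 and -0.43 for BTF3, and in Ex4 0.59 for EIF3E and -0.47 for EIF4B. FAU, which encodes the small-subunit protein eS30 fused to a ubiquitin-like protein and does not carry an RPS symbol, had 0.03 in LQ and -0.02 in Ex4. No difference between these lists and the ribosomal proteins was tested, and the comparisons with WT share the WT arrays.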

How the data were processed

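The deposited table holds linear intensity values, 1 per probe set and array, made by the authors with MAS5, per the submitters' processing notes. For the MAS5 version, none was given in the sources used here. Of 54675 probe sets, 62 are controls, 41091 named 1 gene, 1801 several and 11721 none, and symbols were updated through RefSeq by gene identifier (54 kept the annotation's symbol). From these values log2(intensity + 16) was computed, a scale on which dim probe sets show too small a change, and probe sets under percentile 40 of mean log2 value were left out, leaving 32768. One limma model (3.58.1, R 4.3.3), moderated by eBayes with its trend option, took in all 9 arrays, with two-sided tests and Benjamini-Hochberg adjustment within each contrast. It was tested on simulated data. Promoter letters were read from RefSeq with Python 3.11.15 (pandas 2.3.3).

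Members, lists and tests were chosen with earlier results of these data known. Named were the 8 largest changes each way in each mutant against WT, 4 each way between the mutants, members past the threshold, the brightest and dimmest 3, and members by role, and from other lists up to 3 called genes each way or the 2 largest changes. Deviations of arrays sharing a replicate number correlated from -0.083 to 0.191, above 0.1 in 4 of 9 pairs. Arrays with different numbers were not compared, so these values cannot decide whether the numbers pair the samples. The main fit did not pair them.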

Additional observations from a re-analysis of the deposited data

How the results depend on the processing

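The alternatives were pseudocounts of 1 and 64, filters at none and at percentiles 60 and 80, quantile normalization, median centring, no variance trend, only the arrays compared, a replicate block, array weights, other choices of probe set and each array left out, and centring on the median of all probe sets, which was chosen after seeing the data. With quantile normalization the members' median was 0.0316 in LQ and -0.0029 for LQ against Ex4. Then 0 members were lower in LQ, where 1.48% of all tested probe sets were called lower. With centring on tested probe sets it was -0.0672 in LQ and 0.0739 in Ex4, with 2 members higher and 0 lower in LQ and 1 higher in Ex4, where 9.42% and 3.56% of all tested probe sets were called higher in LQ and in Ex4. With centring on all probe sets it was 0.27 in LQ and 0.35 in Ex4, with 7 higher and 0 lower in LQ and 5 higher in Ex4, against 24.2% and 14.7% of all tested probe sets called higher in LQ and in Ex4. The shares of all tested probe sets called lower in LQ were 2.48% with centring on tested probe sets and 1.58% with centring on all. With centring on all probe sets RPL22 turned to 0.57 (limma adjusted p = 0.0443) and RPS27 to 0.0098 in LQ.

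Members lower in LQ numbered 1 with no filter, 1 at percentile 80, 1 with the replicate block, 0 without the variance trend and 26 with array weights. The shares of all tested probe sets called lower were 1.15%, 3.16%, 3.57%, 0.995% and 14.8% in the same order. The replicate block left the LQ median at -0.31. Members higher in LQ numbered 0 without the trend, where 0.354% of all tested probe sets were called higher. Array weights gave 1 higher and 1 lower in Ex4, where 7.21% of all tested probe sets were called higher and 8.92% lower. Using only probe sets not ending in _x_at or _s_at gave 2 higher and 0 lower in LQ, and RPL37 turned to 0.72. Counting every probe set gave 3 higher and 3 lower of 112 in LQ. For both of these choices 3.09% of all tested probe sets were called higher in LQ and 3.72% lower. The causes were not tested.

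Leaving out each array gave members' medians of -0.40 to -0.22 in LQ, -0.25 to -0.04 in Ex4 and -0.22 to -0.05 for LQ against Ex4. Members called ranged over 0 to 1 higher and 0 to 18 lower in LQ, 0 to 2 higher and 0 to 3 lower in Ex4, and 0 each way for LQ against Ex4. In LQ 0.0214% to 8.23% of all tested probe sets were called higher in these fits and 0% to 8.15% lower. In Ex4 0% to 6.88% were called higher and 0.0061% to 9.15% lower. The 18 came without WT replicate 1, where 6.98% of all tested probe sets were called lower. Without any 1 LQ array or WT replicate 2 or 3 no member was lower in LQ, where at most 0.0275% of all tested probe sets were.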
